A study of Mus musculus with 24 samples.

Results

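Interferon-stimulated genes are the genes that a cell switches on when it senses an interferon or, in part, a microbial nucleic acid. A list of 39 of them was followed here among the 27179 genes counted in mouse B cells that lack the transcription factors PU.1, SpiB or both. The members were taken by symbol from a fixed list, and all 39 were found in the deposited tables. The list was chosen with earlier results of these data known, so its shares beside those of all genes are descriptions. The question was how their levels differ between the 4 genotypes at each of 3 stages, and between the stages in control cells.

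Type I interferons bind a receptor at the cell surface and act through the kinases JAK1 and TYK2. These kinases activate a complex that includes STAT2 and IRF9 and binds the interferon-stimulated response element (ISRE) in the promoters of target genes. Many of the target proteins sense, cut or sequester viral RNA, and several sensors of nucleic acids are themselves induced, so the response feeds itself. PU.1 and SpiB are ETS factors that bind a GGAA core, alone or next to an IRF factor on ETS-IRF composite elements, and Toll-like receptor 4 senses lipopolysaccharide (LPS), a component of bacterial walls.

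RNA of lymph node B cells from C57BL/6 mice, aged 6 to 20 weeks in the study's methods, was sequenced as 24 libraries, 2 biological replicates for each of 12 groups. Control mice (Cd23T/+) carried only the Cre transgene. The conditional PU.1 knockout (PU.1 cKO, called cKO here) was Spi1fl/fl Cd23T/+. The germline knockout of Spib (SpiB KO) was Spi1fl/fl Cd23+/+ Spib-/-, and the line lacking both (PU.1 SpiB DKO, called DKO here) joined Spi1fl/fl, Cd23T/+ and Spib-/-. Cells were studied at 3 stages, namely naive, after 48 h with CD40L (50 ng/ml) and IL-4 (10 ng/ml), and after 48 h with LPS (20 µg/ml) and IL-4, sorted as CD3- B220+ CD138-. Cd23-Cre is driven by a promoter of mature B cells, so deletion of Spi1 depends on its activity. The germline deletion of Spib affects every cell of the mouse, and the SpiB KO mice carry floxed Spi1 without Cre. The floxed exon of Spi1 is exon 5, and counts per gene do not separate it from the remaining exons. The study's read coverage showed that naive DKO cells still held part of this exon while cultured cells had lost it, so naive DKO cells are not a complete loss of PU.1.

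Total counts per library were 14231188 to 18194629 in naive cells, 9598674 to 61640683 in CD40L + IL-4 cultures and 22757630 to 73658850 in LPS + IL-4 cultures. Levels are given in CPM, the count scaled to library size over all 24 libraries, with replicate 1 first. Spib lay between 8.87 and 107 CPM in the 12 libraries of Spib-/- mice and between 170 and 2330 CPM in the others. In naive cells Spi1 was at 169 and 182 CPM in control, 63.6 and 57 in cKO and 108 and 118 in DKO, and the DKO level was above that of cKO (log2 fold change 0.92, standard error 0.11, edgeR adjusted p = 0.000571). With CD40L + IL-4 it was at 81.9 and 105 CPM in control, 46 and 34.8 in cKO and 31.7 and 25.1 in DKO. With LPS + IL-4 it was at 69.1 and 60 CPM in control, 42.5 and 39.5 in cKO and 58.8 and 54.8 in DKO, and DKO was not called against control (log2 fold change -0.11, standard error 0.10, edgeR adjusted p = 0.448). All 9 B cell markers were above 1 CPM in naive control cells. In naive cells they summed to 12200 to 12300 CPM in control, 11900 to 12100 in cKO, 10800 to 10900 in SpiB KO and 9340 to 9880 in DKO. With CD40L + IL-4 they summed to 5710 to 7330 CPM in control and 3810 to 4830 in DKO. With LPS + IL-4 the sums were 3420 to 3860 and 3770 to 3790 CPM. In naive cells, however, 8 markers of plasmacytoid dendritic cells, which are strong interferon producers, summed to 83.6 to 172 CPM in control, 109 to 111 in cKO, 594 to 692 in SpiB KO and 785 to 861 in DKO. The 9 T cell markers summed to 77.7 to 130 CPM in control, 127 to 129 in cKO, 433 to 524 in SpiB KO and 629 to 639 in DKO. Of these markers, Cd4, Cd8a, Cd8b1 and Cd28 were called higher in naive SpiB KO cells, while Cd3d, Cd3g, Lck and Thy1 were not called. In LPS + IL-4 cultures the plasmacytoid dendritic cell markers summed to 6.88 to 14.1 CPM over all 8 libraries, and the defining marker Siglech was at most 0.0415 CPM.

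Promoter sequence was available for 30 of the 39 genes (RefSeq, GRCm38.p6, from 250 bases before to 50 bases after the start of transcription). The core of the ISRE, searched on both strands as GAAA and GAAA with any 2 bases between them, was present in 16 of the 30 promoters (53.3%) and in 3.99% of the promoters of all 27025 genes. The ETS-IRF composite core, searched as GGAA and GAAA with any 2 bases between them, was present in 7 of the 30 (23.3%) and in 3.16% of all promoters, while the bare ETS core GGAA was in 96.7% and 96.5%. Both longer cores were found in Stat2, Igtp and Irgm2, where they overlap. The windows below are those of genes whose values are described later, and capitals mark the ISRE core except for Igtp and Ifi44, where they mark the composite core.
Stat2 (chr10:128270266-128270295, minus strand): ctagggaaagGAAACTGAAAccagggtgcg
Ifit1 (chr19:34640794-34640823, minus strand): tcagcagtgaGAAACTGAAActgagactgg
Isg15 (chr4:156200871-156200900, minus strand): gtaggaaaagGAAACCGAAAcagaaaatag
Oas3 (chr5:120777715-120777744, minus strand): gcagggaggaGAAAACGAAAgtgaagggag
Rsad2 (chr12:26456553-26456582, plus strand): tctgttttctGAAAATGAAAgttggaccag
Ifih1 (chr2:62646206-62646235, minus strand): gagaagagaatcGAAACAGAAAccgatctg
Gbp2 (chr3:142620594-142620623, minus strand): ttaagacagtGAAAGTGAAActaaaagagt
Gbp7 (chr3:142530273-142530302, minus strand): atggagaactGAAACTGAAActgcacacac
Igtp (chr11:58199506-58199535, plus strand): gccatttctaGGAACTGAAActgaaagctg
Ifi44 (chr3:151749939-151749968, plus strand): atcctgctcgGGAAACGAAAactgaaactc

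Each match lies within the window searched and is a description of sequence, not of binding. The ISRE core of Stat2 is centred 217 bases before the start, those shown for Ifit1, Isg15, Oas3, Gbp2 and Gbp7 are centred 80, 67, 70, 54 and 48 bases before it, and that of Ifih1 lies 37 bases after it. Usp18, Dhx58, Parp14, Zbp1, Mx2, Rtp4, Mx1, Parp9 and Oas2 had no entry in the promoter table.

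In control B cells the levels of the 39 genes differed between the stages. Culture with CD40L + IL-4 went with lower levels almost throughout: 33 of the 39 fell against naive cells and 1 rose (adjusted p of 0.15 or less and fold over 1.5 in edgeR's quasi-likelihood test), where 23.4% of all 13684 genes tested fell and 25.4% rose. With LPS + IL-4, 14 genes were higher and 15 lower than in naive cells, shares near those of all genes (32.6% and 31.3%). Between the cultures, 30 genes were higher with LPS + IL-4 and 1 was lower, against 20.3% and 21% of all genes. Ifit1, Ifit3, Mx1, Mx2, Rsad2 and Ifi44 did not pass the filter with CD40L + IL-4 and entered these comparisons through the other stages. Among the 33 genes that passed in every stage, 27 fell and 1 rose with CD40L + IL-4 against naive cells, 12 rose and 12 fell with LPS + IL-4, and 25 were higher and 1 lower with LPS + IL-4 than with CD40L + IL-4. The CD40L + IL-4 libraries were deposited in a table of their own, so what differs between the tables and what differs between the stages cannot be told apart in comparisons with them.

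**Figure D1:**
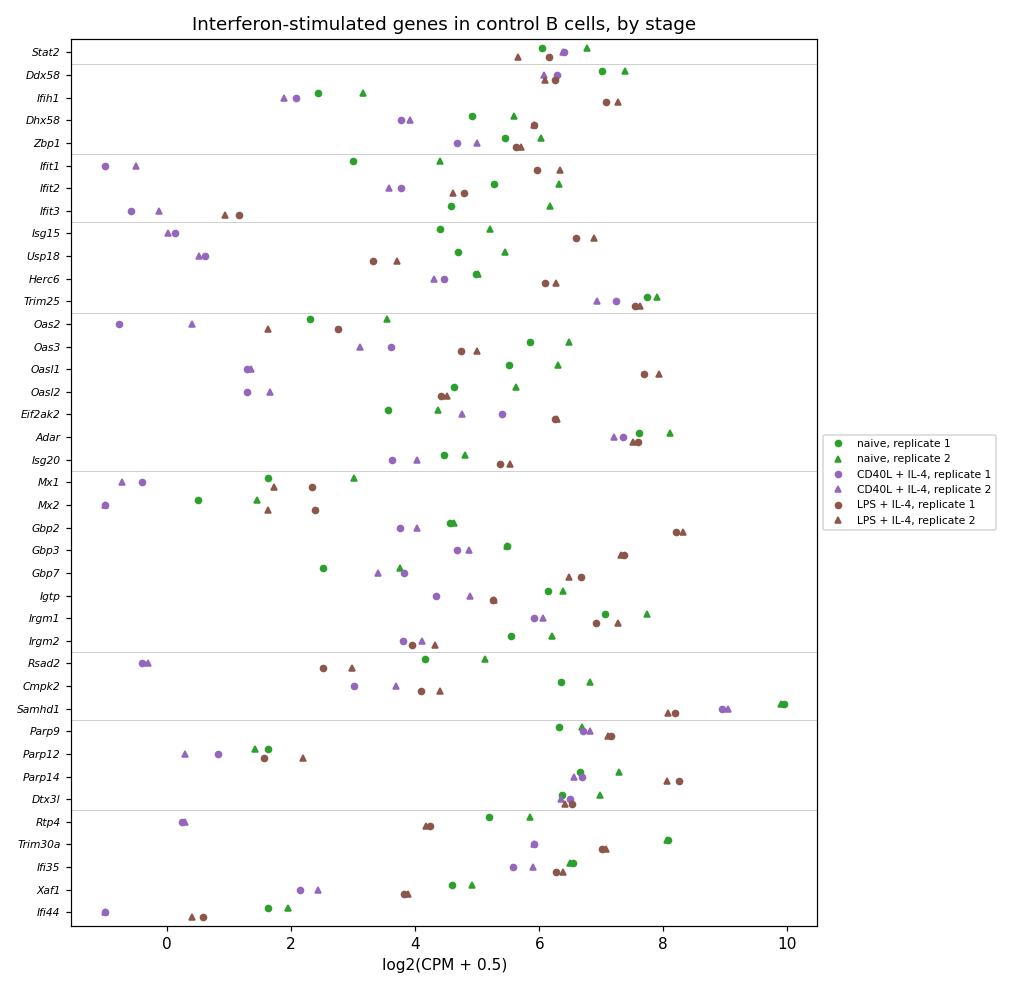
Levels of the 39 genes in the 6 control libraries. The horizontal axis is log2(CPM + 0.5), circles are replicate 1 and triangles replicate 2, green is naive, purple CD40L + IL-4 and brown LPS + IL-4, and grey lines separate the groups by role. Most purple points lie to the left of both other colours, and Ifih1, Gbp2 and Gbp7 lie farthest to the right of their naive points with LPS + IL-4.

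The genes highest with LPS + IL-4 were of several kinds. Ifih1, which encodes the RNA sensor MDA5, was at 4.87 and 8.47 CPM in naive control cells, 3.73 and 3.18 CPM with CD40L + IL-4 and 134 and 153 CPM with LPS + IL-4. Its log2 fold change from naive cells to LPS + IL-4 was 4.42 (SE, the standard error, 0.30, edgeR adjusted p = 1.46e-10), the largest in the list. Gbp2 and Gbp7, guanylate-binding GTPases of host defence, followed: Gbp2 went from 23.1 and 24.3 to 294 and 319 CPM (log2 fold change 3.69, SE 0.22) and Gbp7 from 5.18 and 13 to 101 and 88.6 CPM (3.38, SE 0.36). Ifit1, whose protein binds viral RNA lacking a host cap, was at 7.46 and 20.7 CPM in naive cells and 62.2 and 79.9 CPM with LPS + IL-4, and held 0 and 2 counts with CD40L + IL-4. Isg15, a ubiquitin-like modifier, showed the same 3 levels, at 20.5 and 36.2, 0.593 and 0.512, and 95.6 and 117 CPM.

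Other members stayed below their naive level in both cultures. Ifit3, a partner of Ifit1, was at 23.4 and 71.4 CPM in naive control cells, 0.169 and 0.41 CPM with CD40L + IL-4 and 1.74 and 1.4 CPM with LPS + IL-4. Its log2 fold change with LPS + IL-4 was -4.93 (SE 0.81, edgeR adjusted p = 2.73e-05), opposite in sign to that of its neighbour Ifit1. Ifit3 shares near-identical sequence with a second copy and only uniquely mapped reads were counted, so its count is uncertain. Cmpk2, a mitochondrial nucleotide kinase, fell from 80.7 and 112 to 16.6 and 20.6 CPM with LPS + IL-4. Rsad2, which encodes the antiviral enzyme viperin, fell from 17.4 and 34.3 to 5.22 and 7.4 CPM. Samhd1, a hydrolase of deoxynucleotides, fell from 980 and 950 to 290 and 268 CPM and was the single member lower with LPS + IL-4 than with CD40L + IL-4, where it stood at 490 and 527 CPM. Eif2ak2, which encodes the kinase PKR, was the single member that rose with CD40L + IL-4, from 11.3 and 20.1 to 41.5 and 26.4 CPM (log2 fold change 1.12, SE 0.32, edgeR adjusted p = 0.00643). Mx2 and Ifi44 had 0 counts in both control libraries with CD40L + IL-4. Against the level that 3 counts over the group would give (0.139 CPM), Mx2 was at least 11.4-fold and Ifi44 at least 21.4-fold lower than in naive cells. Markers of other cells differed between the stages too. In control, 5 natural killer cell markers summed to 39.5 to 99.7 CPM in naive cells, 0.847 to 1.64 with CD40L + IL-4 and 0.124 with LPS + IL-4. The 10 macrophage markers summed to 6.39 to 12, 26.8 to 41.3 and 8.71 to 14.1 CPM in the same order. The part of these markers in the differences was not tested.

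Loss of either factor or of both went with lower levels of most of the list in LPS + IL-4 cultures. Of the 39 genes, all of which passed the filter, 28 fell in DKO against control, 25 in cKO and 20 in SpiB KO, where 6.52%, 3.85% and 0.94% of all 12445 genes tested fell. None of the 39 was called higher in any of the 3 mutants by edgeR, DESeq2 or voom, and 13.7%, 6.68% and 2.25% of all genes were called higher by edgeR. The median level was 32.7% of control in DKO, 52.6% in cKO and 62.3% in SpiB KO. The median log2 fold changes were -1.54, -0.91 and -0.68, with medians over all genes of 0.0076, -0.0018 and -0.0012. These comparisons share the same 2 control libraries. In bulk RNA, fewer responding cells and less RNA in each cell cannot be told apart.

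**Figure D2:**
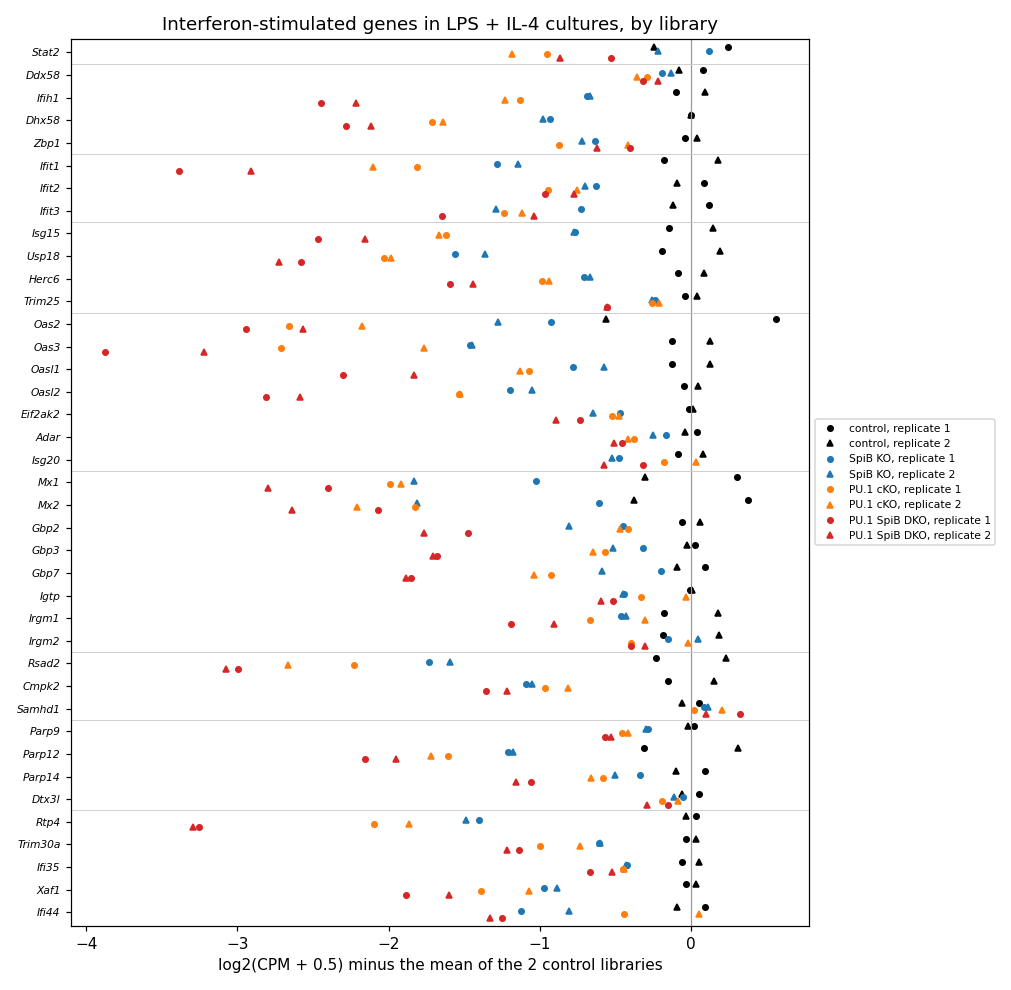
The 39 genes in the 8 LPS + IL-4 libraries. The horizontal axis is log2(CPM + 0.5) minus the mean of the 2 control libraries of that gene, circles are replicate 1, triangles replicate 2, and grey lines separate the groups by role. For 33 genes all 6 mutant libraries lie to the left of both control libraries, and for 28 the means run in the order control, SpiB KO, cKO, DKO.

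The order of the genotypes was alike across the list. In 33 of the 39 genes (84.6%) all 6 mutant libraries lay below both control libraries, a pattern held by 7.68% of all genes. In naive cells 4 of 39 genes had it (all genes 10.7%), and with CD40L + IL-4 4 of the 33 tested (all genes 4.87%). The exceptions were Stat2, Isg20, Irgm2, Samhd1, Dtx3l and Ifi44. The means ran from control through SpiB KO and cKO to DKO in 28 genes (71.8%; all genes 11.7%). The control mean was the highest in 38 genes (all genes 31%) and the DKO mean the lowest in 34 (all genes 41.6%). In all 3 mutants 17 members were called lower, which 0.587% of all genes were: Xaf1, Dhx58, Rsad2, Cmpk2, Rtp4, Mx1, Ifit2, Ifit1, Ifih1, Isg15, Oasl2, Oasl1, Oas3, Parp12, Herc6, Usp18 and Trim30a. The median log2 difference between replicates of a group was between -0.01 and 0.06 over the list.

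Among the sensors of cytosolic nucleic acid, 2 of 4 fell in DKO and 3 in each of the other mutants. With LPS + IL-4, Ifih1 was at 134 and 153 CPM in control, 88.8 and 89.9 in SpiB KO, 65 and 60.8 in cKO and 25.9 and 30.4 in DKO. No 2 genotypes overlapped, and the log2 fold change was -0.68 (SE 0.09) in SpiB KO, -1.17 (0.09) in cKO and -2.28 (0.10) in DKO (edgeR adjusted p = 0.00655, 7.98e-05 and 1.25e-06). Dhx58, which encodes the sensor LGP2, was at 59.7 CPM in both control libraries, 31 and 30.1 in SpiB KO, 17.9 and 18.8 in cKO and 11.9 and 13.4 in DKO. Ddx58, which encodes the sensor RIG-I, was at 76 and 67.9 CPM in control and 57.6 and 61.6 in DKO, and its log2 fold changes of -0.16 to -0.31 did not reach the fold threshold in any mutant.

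All 3 IFIT genes fell in DKO and in cKO, and 2 in SpiB KO. Ifit1 was at 62.2 and 79.9 CPM in control, 28.7 and 31.7 in SpiB KO, 19.7 and 16 in cKO and 6.3 and 8.95 in DKO. Its log2 fold change in DKO was -3.15 (SE 0.19, edgeR adjusted p = 5.36e-06). The whole of Ifit1 (9121 bases) overlaps the annotated Ifit1bl1, so its reads are uncertain. Of Isg15 and the enzymes that attach or remove it, 3 of 4 fell in each mutant. Isg15 itself was at 95.6 and 117 CPM in control, 62 and 61.7 in SpiB KO, 34.1 and 33 in cKO and 18.7 and 23.4 in DKO. Usp18, which removes ISG15 and damps the receptor, fell by 2.99 on the log2 scale in DKO (SE 0.21). Trim25, the ubiquitin ligase of the group, stayed within the fold threshold.

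The OAS family, enzymes that make the activator of RNase L and their relatives, held the largest difference, that of Oas2. Oas2 was at 6.22 and 2.58 CPM in control, 1.9 and 1.38 in SpiB KO, 0.221 and 0.506 in cKO and 0.0917 and 0.267 in DKO. Its log2 fold change was -4.57 (SE 0.65, edgeR adjusted p = 0.000773) in DKO and -3.66 (SE 0.57, edgeR adjusted p = 0.00292) in cKO. Oas3 was at 26.3 and 31.4 CPM in control, 10.1 and 10.2 in SpiB KO, 3.97 and 8.12 in cKO and 1.49 and 2.64 in DKO, with no overlap between any genotypes. Oasl1, an OAS-like protein, went from 205 and 244 CPM in control to 44.9 and 62.5 in DKO. Eif2ak2 fell in DKO, while Adar, an RNA-editing enzyme, and Isg20, an exonuclease, stayed within the fold threshold in all 3 mutants.

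Among the large and immunity-related GTPases, which restrict viruses and vacuolar microbes, 6 of 8 fell in DKO, 4 in cKO and 2 in SpiB KO. Mx1 was at 4.56 and 2.81 CPM in control, 1.51 and 0.649 in SpiB KO, 0.532 and 0.585 in cKO and 0.275 and 0.0889 in DKO, and Mx2 followed with 4.73 and 2.6, 2.14 and 0.649, 0.636 and 0.373, and 0.458 and 0.148 CPM. Their log2 fold changes in DKO were -4.16 (SE 0.56) and -3.43 (SE 0.65). Gbp2, the member with the second largest rise under LPS + IL-4 in control, was at 294 and 319 CPM in control, 224 and 175 in SpiB KO, 229 and 221 in cKO and 110 and 89.9 in DKO. The neighbours Igtp and Irgm2, whose promoters hold both longer cores, were not called in any mutant.

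Rsad2 was at 5.22 and 7.4 CPM in control, 1.52 and 1.73 in SpiB KO, 0.935 and 0.559 in cKO and 0.344 and 0.296 in DKO, a log2 fold change of -4.21 (SE 0.34, edgeR adjusted p = 3.07e-05). Samhd1 stood apart, with 290 and 268 CPM in control and 349 and 299 in DKO, and was not called in any mutant. Rtp4, which encodes a chaperone of membrane receptors, was at 18.4 and 17.6 CPM in control, 6.49 and 6.1 in SpiB KO, 3.82 and 4.58 in cKO and 1.44 and 1.39 in DKO, again without overlap. Parp9, an ADP-ribosyltransferase-like partner of Dtx3l, went from 142 and 138 CPM to 94.4 and 96.7 in DKO, a log2 fold change of -0.48 below the fold threshold. Parp9 and Dtx3l overlap by 558 bases, so reads there are uncertain. Ifi44, a cytoplasmic interferon-induced protein, was at 0.995 and 0.818 CPM in control, 0.143 and 0.303 in SpiB KO, 0.532 and 0.958 in cKO and 0.0917 and 0.0593 in DKO, so that cKO overlapped control.

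Leaving out single libraries left the counts with LPS + IL-4 at 27 to 28 genes in DKO and 23 to 25 in cKO. In SpiB KO the count was 13 without SpiB KO replicate 2. In SpiB KO the call of Ifi44 was lost without control replicate 2 or either SpiB KO library, and that of Mx1 without either control library or SpiB KO replicate 2. The plasmacytoid dendritic cell markers summed to 6.88 to 10.7 CPM in control and 10.9 to 14.1 CPM over the mutants. The 10 macrophage markers summed to 8.71 to 14.1 CPM in control, 17 to 19.4 in SpiB KO, 1.76 to 3.29 in cKO and 4.06 to 4.33 in DKO, so that SpiB KO was above control and cKO the lowest. In the same order the 5 plasma cell markers summed to 634 to 704, 724 to 784, 1140 to 1260 and 1500 to 1520 CPM, and the 9 T cell markers to 49.8 to 58.3, 87 to 92.9, 118 to 122 and 186 to 202 CPM. The markers within a sum did not all move alike. Of the macrophage markers only Emr1 passed the filter. In DKO the plasma cell marker Sdc1 was not called (log2 fold change -0.02), while Prdm1, Igj, Xbp1 and Irf4 rose. Of the T cell markers tested, Lck, Thy1 and Cd28 rose in DKO and Cd8b1 fell (-3.90). The part of these markers in the results was not tested.

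DKO cells also differed from each single mutant with LPS + IL-4. Against cKO 14 of the 39 genes fell (3.49% of all genes) and against SpiB KO 21 fell (4.12%), with median log2 fold changes of -0.51 and -0.82. None was called higher by edgeR, DESeq2 or voom, where edgeR called 9.12% and 8.64% of all genes higher. Rtp4 was lower by a log2 fold change of -1.50 (SE 0.17) than in cKO and of -2.08 (SE 0.17) than in SpiB KO. Of the 14 genes that LPS + IL-4 raised in control cells, 7 were lower in DKO than in cKO and 11 were lower than in SpiB KO. Of the 15 genes below their naive level, 6 were lower in each comparison. The interaction of the losses, which asks whether the effect in DKO departs from the sum of the single effects on the log2 scale, was called for 1 of 39 genes (all genes 1.48%). This gene was Gbp3, at -0.63 (SE 0.13, edgeR adjusted p = 0.0897), and the count depended on single libraries. It was 0 without cKO replicate 1, SpiB KO replicate 1 or either DKO library, 1 (higher) without cKO replicate 2 and 4 without control replicate 2. With the replicate number as a block, 12 genes were called (all genes 10.3%). In that fit Ifih1, Gbp2, Gbp3 and Gbp7 had lower terms (-0.44 to -0.63) and 8 genes, led by Zbp1 (0.87), Usp18 (0.82) and Cmpk2 (0.74), had higher ones.

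The 16 genes with an ISRE core and the 14 without were set beside these calls. In DKO with LPS + IL-4, 13 of the 16 and 8 of the 14 were called lower. Of the 7 genes with a composite core 2 were called lower, and of the 23 without it 19. Of the 9 members without a promoter entry, Usp18, Dhx58, Parp14, Mx2, Rtp4, Mx1 and Oas2 were also called lower and lie outside these counts. These are counts with no test, and the windows cover only the 300 bases around each start.

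**Figure D3:**
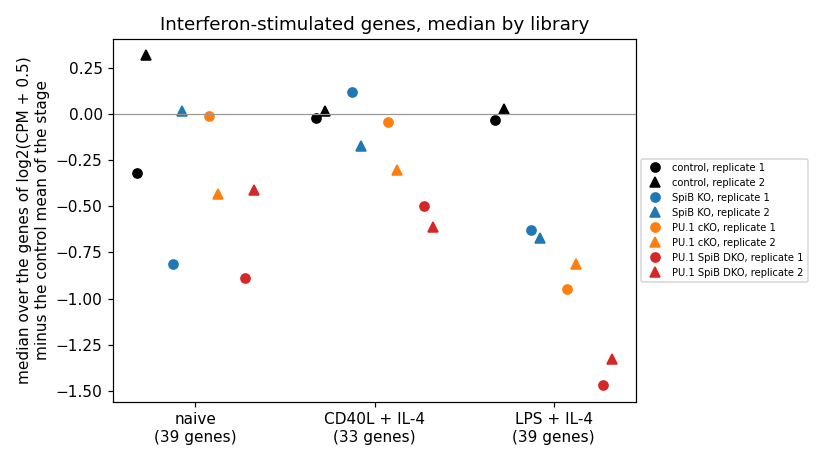
Median over the genes of log2(CPM + 0.5) minus the control mean of the same stage, for each of the 24 libraries (vertical axis; circles are replicate 1 and triangles replicate 2). Replicates lie close together with LPS + IL-4 and farthest apart in naive SpiB KO cells, at -0.81 and 0.02.

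In naive cells the list was lower in DKO, but the replicates of a genotype differed more than in the cultures. The median size of the log2 difference between replicates was 0.08 to 0.3 in the culture groups. In naive cells it was 0.38 (cKO) to 0.79 (SpiB KO). In DKO 14 genes fell and 1 rose (8.64% and 12.6% of all 12500 genes tested), with a median log2 fold change of -0.64. In cKO 2 fell and 1 rose (all genes 6.55% and 4.18%), and in SpiB KO 1 fell and 1 rose (3.62% and 6.01%). Replicate 2 was above replicate 1 in 35 of 39 genes in control, 38 in SpiB KO and 36 in DKO, by medians of 0.64, 0.79 and 0.50 on the log2 scale, while in cKO replicate 1 was higher in 32 genes (median -0.31). Over all genes these medians were between -0.03 and 0.01. The summed plasmacytoid dendritic cell markers were 172 CPM in control replicate 1 and 83.6 CPM in replicate 2, opposite in order to the list, and whether they bear on it was not tested.

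The counts in naive cells rested on single libraries. The 15 calls in DKO became 26 without control replicate 1, 5 without control replicate 2, 4 without DKO replicate 1 and 23 without DKO replicate 2. The 3 calls in cKO became 8 without control replicate 1 and 1 without cKO replicate 2. The 2 calls in SpiB KO became 10 without control replicate 1 and 1 without control replicate 2 or either SpiB KO library, and 4 with the replicate block.

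Oas2 and Oas3 kept their calls in DKO whichever library was left out. Oas2 was at 4.42 and 11.2 CPM in naive control cells, 1.65 and 3.22 in SpiB KO, 2.99 and 1.15 in cKO and 0.712 and 1.18 in DKO. Its log2 fold change was -3.02 (SE 0.61, edgeR adjusted p = 0.00831) in DKO. In cKO it was -1.92 (edgeR adjusted p = 0.076), lost without control replicate 2 or cKO replicate 2, and in SpiB KO it was -1.68 (edgeR adjusted p = 0.121), called without control replicate 1 and lost without any of the other 3 libraries. Oas3 was at 57 and 88.7 CPM in control, 18.3 and 48.7 in SpiB KO, 48.4 and 17.7 in cKO and 5.96 and 13.6 in DKO, a log2 fold change of -2.89 (SE 0.59, edgeR adjusted p = 0.00866). All mutant libraries of both genes lay below both controls.

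Several other naive differences depended on single libraries. Ifit1 was at 7.46 and 20.7 CPM in control, 1.84 and 14.5 in SpiB KO, 13.7 and 5.21 in cKO and 1.36 and 4.16 in DKO (log2 fold change -2.34, SE 0.90). Rsad2 was at 17.4 and 34.3, 7.87 and 30.8, 28 and 8.05, and 4.21 and 12.3 CPM in the same order (log2 fold change -1.64, SE 0.74). The calls of Ifit1 and Rsad2 were lost without control replicate 2 or DKO replicate 1. Oasl1 was at 45 and 78.3 CPM in control, 27.7 and 52.8 in SpiB KO, 51.6 and 39.3 in cKO and 15.2 and 28.7 in DKO, and its call was lost without DKO replicate 1. Ddx58 was at 128 and 166 CPM in control and 68.8 and 102 in DKO (log2 fold change -0.77, SE 0.23). Isg15 was not called in any naive mutant, with 20.5 and 36.2 CPM in control and 17.7 and 25.8 in DKO, nor was Mx1, with 2.59 and 7.58 against 2.85 and 2.98 CPM.

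Ifi44 ran against the rest of the list in naive cells. It was at 2.59 and 3.35 CPM in control, 12.8 and 11.6 in SpiB KO, 7.55 and 5.89 in cKO and 14.4 and 13.7 in DKO. It rose by log2 fold changes of 2.03 (SE 0.23, edgeR adjusted p = 0.000882) in SpiB KO, 1.17 (SE 0.24, edgeR adjusted p = 0.0199) in cKO and 2.25 (SE 0.23, edgeR adjusted p = 0.000223) in DKO, and the call in cKO was lost without cKO replicate 1. It was the only member called higher in any naive mutant. The summed plasmacytoid dendritic cell markers were likewise higher in SpiB KO and DKO, with 594 to 861 CPM against 83.6 to 172 CPM in control and cKO, and their part in Ifi44 was not tested. Against cKO, 7 genes fell and 1 (Ifi44) rose in DKO (3% and 9.91% of all genes). The total of 8 became 2 without cKO replicate 1, 4 without cKO replicate 2 and 1 without DKO replicate 1. Against SpiB KO edgeR called 0 genes (all genes 3.05%), 3 had an unadjusted p under 0.05, DESeq2 and voom called 0 and the block called 2 (Oas3 and Oasl1, both lower). The interaction was called for 0 genes by edgeR, DESeq2 and voom (all genes 0.936% by edgeR), with 2 at an unadjusted p under 0.05 and 3 with the block.

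**Figure D4:**
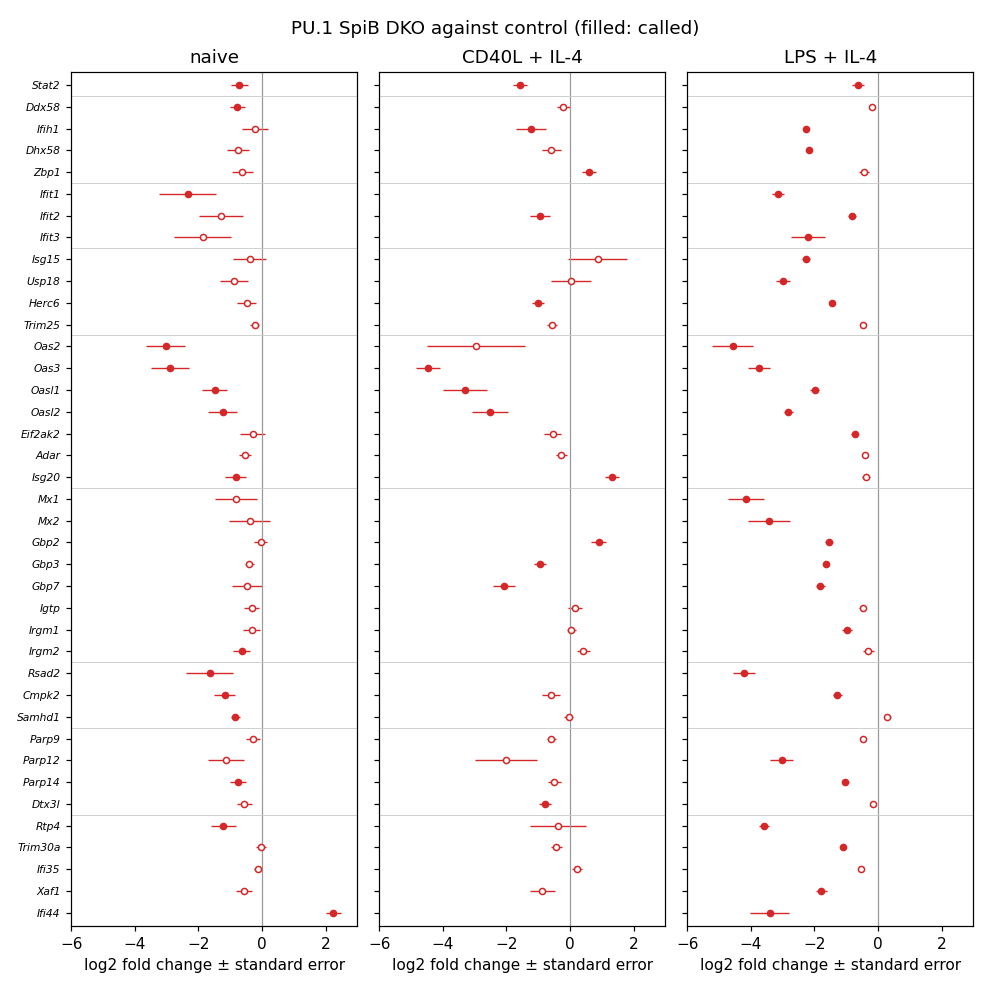
Log2 fold change of DKO against control (horizontal axis) with its standard error, in naive cells, CD40L + IL-4 and LPS + IL-4 cultures. Filled points passed the adjusted p of 0.15 and the fold of 1.5, and genes that failed the filter have no point. The filled points are 15, 13 and 28, and those to the right of 0 are Ifi44 in naive cells and Isg20, Gbp2 and Zbp1 with CD40L + IL-4.

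With CD40L + IL-4, 33 of the 39 genes passed the filter, and Ifit1, Ifit3, Mx1, Mx2, Rsad2 and Ifi44 did not. In DKO 10 genes fell and 3 rose (9.2% and 9.13% of all 12721 genes tested), and in cKO 6 fell and 2 rose (7.21% and 6.27%). In SpiB KO edgeR, DESeq2 and voom called 0 members, 0 had an unadjusted p under 0.05, and 0.134% of all genes were called by edgeR. The count in cKO was 5 without control replicate 1 and 4 without cKO replicate 2, the deepest library of the stage.

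The OAS family again held the largest differences. Oas3 was at 11.7 and 8.1 CPM in control, 7.15 and 6.39 in SpiB KO, 3.64 and 4.06 in cKO and 0.421 and 0.467 in DKO, a log2 fold change of -4.47 (SE 0.39, edgeR adjusted p = 4.59e-05). Oasl1 was at 1.95 and 2.05 CPM in control, 1.74 and 1.19 in SpiB KO, 0.492 and 0.359 in cKO and 0.105 and 0.28 in DKO. Oasl2 followed with 1.95 and 2.66, 1.64 and 1.53, 0.492 and 0.441, and 0.421 and 0.373 CPM. Both fell in DKO and in cKO without overlap with control, and their calls in cKO were lost without cKO replicate 2. In this DKO group 3 counts would correspond to 0.148 CPM, so the DKO levels of both genes and of Oas3 rest on few counts. Ifih1, at 3.73 and 3.18 CPM in control and 1.28 and 1.08 in cKO, lost its call there without control replicate 1 or cKO replicate 2.

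The GTPases moved both ways. Gbp7 was at 13.6 and 10.1 CPM in control, 15.3 and 9.71 in SpiB KO, 8.56 and 6.31 in cKO and 3.47 and 2.24 in DKO (log2 fold change -2.07, SE 0.34). Gbp2 was higher in cKO, with 52.2 and 34.9 against 13 and 15.9 CPM in control (log2 fold change 1.56, SE 0.22, edgeR adjusted p = 0.00166), and also in DKO, with 26.5 and 27.5 CPM. Isg20 was at 11.8 and 15.9 CPM in control, 11.5 and 12.4 in SpiB KO, 17.8 and 23.1 in cKO and 39.5 and 30 in DKO, a log2 fold change of 1.32 (SE 0.22, edgeR adjusted p = 0.00278). Isg20 is also expressed by plasma cells, whose 5 markers summed to 1180 to 1390 CPM in control and 2280 to 2530 in DKO, and their part in the result was not tested. Zbp1, a sensor of Z-form nucleic acid, rose in cKO and DKO by 0.62 and 0.60 on the log2 scale. Isg15, at 0.593 and 0.512 CPM in control, and Rtp4, at 0.678 and 0.717 CPM, were below 1 CPM and were not called in any mutant.

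DKO was lower than SpiB KO in 11 genes and higher in 2 with CD40L + IL-4 (7.11% and 8.18% of all genes). The total of 13 became 8 without SpiB KO replicate 1 or DKO replicate 2. Against cKO 5 genes were lower and 1 higher (1.83% and 2.23%), a total that became 3 without cKO replicate 1 and 1 without DKO replicate 2. The interaction was called for Oas3 (-2.52, SE 0.50, edgeR adjusted p = 0.0813) and Gbp3 (-1.27, SE 0.24, edgeR adjusted p = 0.0699), where 1.17% of all genes were called. The number of calls was 1 without control replicate 1 or either cKO library, and 0 without control replicate 2, SpiB KO replicate 1 or DKO replicate 2. Oas3 thus fell by 1.38 in cKO and by 4.47 in DKO on the log2 scale, and its log2 fold change in SpiB KO was -0.57 (edgeR adjusted p = 1).

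**Figure D5:**
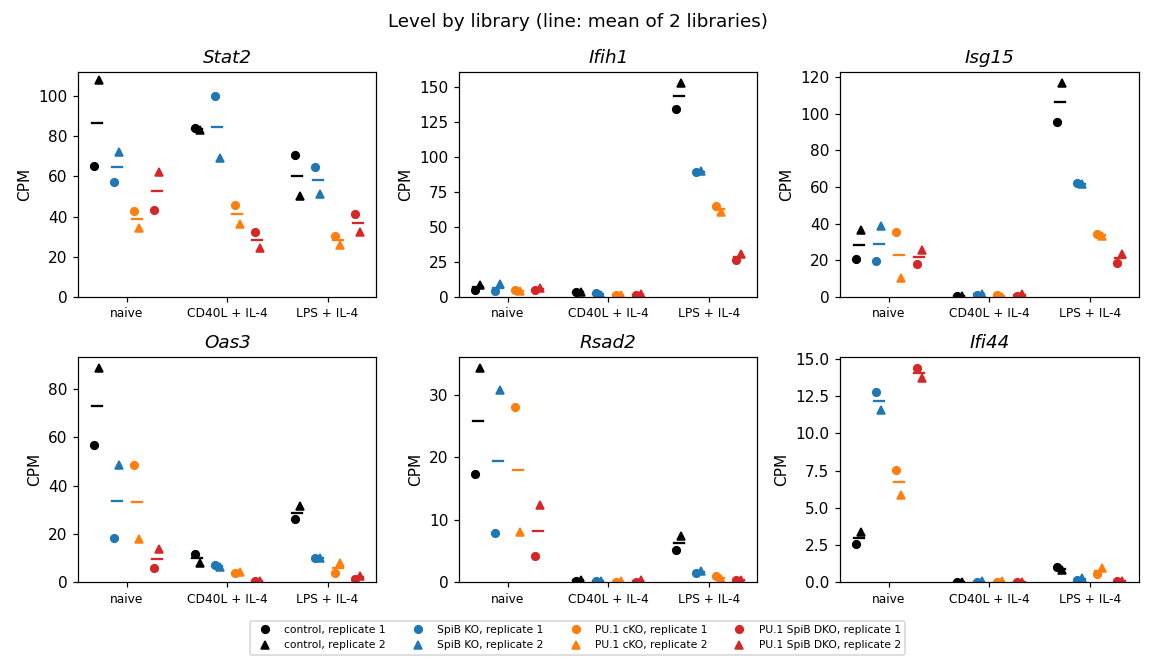
CPM of Stat2, Ifih1, Isg15, Oas3, Rsad2 and Ifi44 in the 24 libraries (vertical axes start at 0; circles are replicate 1, triangles replicate 2, lines the mean of 2 libraries). Stat2 is low in cKO at each stage and near control in SpiB KO, Ifih1 and Isg15 fall stepwise with LPS + IL-4, and Ifi44 is highest in naive SpiB KO and DKO cells.

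The difference between DKO and control was itself different between the stages for many members. Naive DKO cells retained part of Spi1, so stage and extent of deletion cannot be told apart in the comparisons with naive cells. Tested as the difference of the log2 fold changes in a fit of all 24 libraries, it differed between LPS + IL-4 and naive cells for 20 of the 39 genes, 19 of them lower with LPS + IL-4 (all genes 29.6% in total and 16% lower). Ifi44 had the largest difference, -5.69 (SE 0.60, edgeR adjusted p = 9.11e-06), and its level in DKO with LPS + IL-4 was near 0. The 19 also held Rtp4 (-2.44, SE 0.51), Ifih1 (-2.13, SE 0.40) and Isg15 (-1.96, SE 0.59). Samhd1 was the exception, at 1.06 (SE 0.19). Between LPS + IL-4 and CD40L + IL-4, 16 genes differed, 15 of them lower with LPS + IL-4 (28.6% and 15% of all genes), with Gbp2 at -2.52 (SE 0.30, edgeR adjusted p = 0.000127) and Isg20 at -1.78 (SE 0.38). That count was 9 without control replicate 1 or 10 without DKO replicate 2 of the CD40L + IL-4 cultures, and 9 without control replicate 2 of the LPS + IL-4 cultures. Between CD40L + IL-4 and naive cells, 7 genes differed, 5 higher and 2 lower, a share close to the 16.8% of all genes, and 3 without control replicate 1 of the CD40L + IL-4 cultures. The members that failed the filter with CD40L + IL-4 entered these fits with counts near 0 there, and among the 33 that passed in every stage 16, 15 and 7 genes differed in the order given.

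Stat2, the transcription factor of the list, was called lower at each stage in both genotypes with floxed Spi1 and Cre and was not called in SpiB KO. It was at 65.1 and 108 CPM in naive control cells, 57.2 and 72 in SpiB KO, 42.7 and 34.5 in cKO and 43.1 and 62.2 in DKO. With CD40L + IL-4 it was at 84.1 and 83.1, 99.9 and 69.1, 45.8 and 36.5, and 32.3 and 24.5 CPM, and with LPS + IL-4 at 70.7 and 50.2, 64.8 and 51.2, 30.5 and 26, and 41.2 and 32.4 CPM. Stat2 fell in cKO by log2 fold changes of -1.17 (SE 0.26), -1.05 (0.21) and -1.08 (0.20) in the 3 stages, with edgeR adjusted p-values of 0.0298, 0.0113 and 0.00677. In DKO it fell by -0.71, -1.57 and -0.64 (edgeR adjusted p = 0.0835, 0.000907 and 0.0313). In SpiB KO its log2 fold changes were -0.43 (SE 0.26), 0.00 (0.21) and -0.05 (0.19), and none was called. When single libraries were left out, the naive call in cKO was lost without cKO replicate 2, and that in DKO with CD40L + IL-4 was kept. The other calls of Stat2 were not repeated in this way. Against SpiB KO, DKO was lower with CD40L + IL-4 (-1.57) and LPS + IL-4 (-0.59, edgeR adjusted p = 0.0667), and was not called in naive cells. Stat2 overlaps Apof by 753 bases in the annotation, where reads are uncertain.

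Of 30 other genes of the interferon pathway (ligands, receptors, kinases, IRF factors, sensors and inhibitors), 28 were tested with LPS + IL-4. In DKO 7 fell and 3 rose (all genes 6.52% and 13.7%), in cKO 4 fell (3.85%) and in SpiB KO 1 fell and 1 rose (0.94% and 2.25%), so that the share that rose in DKO was not above that of all genes. Irf7, the factor that amplifies interferon production, was at 36.5 and 35 CPM in control, 11.8 and 12.1 in SpiB KO, 7.13 and 9.82 in cKO and 3.6 and 4.27 in DKO, the same order as most of the list. Its log2 fold changes were -1.58 (SE 0.16), -2.07 (0.16) and -3.12 (0.17). Irf9, which joins STAT2 at the ISRE, fell in cKO by 0.71 (SE 0.09) on the log2 scale. In DKO its log2 fold change of -0.58 (SE 0.09, edgeR adjusted p = 0.00123) missed only the fold threshold. Irf5 and Tlr9 fell in cKO and DKO, with Irf5 at log2 fold changes of -1.13 and -1.65 and Tlr9 at -1.01 and -1.39. Tlr4, the receptor for LPS, fell in DKO by 0.60 (SE 0.12), from 18.3 and 23.4 to 12.9 and 13.4 CPM. It was not called in cKO or in SpiB KO (-0.21, SE 0.12), and DKO was lower than cKO (-0.60, SE 0.12). Tlr3 and Ifngr2 fell in DKO too (-1.15 and -0.64). The inhibitors Socs1 and Socs3 rose in DKO, by 1.13 and 1.09, as did Irf8 (0.67). Socs3 was the gene that rose in SpiB KO (0.85).

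The ligands on this list were Ifnb1 and Ifng, and other interferon genes were not on it. Ifng passed the filter in naive cells only, where it was called higher in DKO (log2 fold change 2.18, SE 0.38). Ifnb1, which encodes interferon beta, had 1 and 6 counts in the control libraries with LPS + IL-4 and 0 counts in all 6 mutant libraries of that culture, where 3 counts over a group would correspond to 0.0262 to 0.0388 CPM. It had 0 counts in every CD40L + IL-4 library and 2 counts in total over the naive ones, both in SpiB KO. Ifnb1 was below the filter at every stage and was not tested. In naive DKO, 3 of 29 pathway genes fell (Irf2, Irf5 and Tlr3) and 4 rose (Ifng, Ifnar2, Irf8 and Ikbke), shares near the 8.64% and 12.6% of all genes, while in SpiB KO Ifnar2 and Irf8 rose, by 0.98 and 0.70 on the log2 scale. In naive cKO Tlr9 fell by 0.68, and Mb21d1, which encodes the DNA sensor cGAS, was at 0.0681 and 0 CPM against 0.838 and 2.53 CPM in control. With CD40L + IL-4, 5 of 28 pathway genes fell in DKO (Jak1, Jak2, Irf5, Tlr4 and Tlr9) and 2 rose (Myd88 and Socs3), where 9.2% and 9.13% of all genes did, and Tlr9 had the largest log2 fold change, -2.54 (SE 0.20).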

How the data were processed

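RNA-seq libraries were made with a TruSeq RNA kit. The authors aligned reads to GRCm38/mm10 using Subread and counted those with a unique position over RefSeq exons (featureCounts), and the deposited counts are raw whole numbers per gene in 2 tables, 1 of them for the CD40L + IL-4 libraries. No strand setting is given in the sources used here. The log2 RPKM values deposited by the authors served as 1 alternative threshold and for levels between genes. All count columns were mapped to samples (0 columns not used). Rows without a symbol (517, 0.162% of counts) stayed out of the named genes.

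The 8 libraries of a stage were fitted together with edgeR 4.0.16 (TMM, quasi-likelihood test, R 4.3.3) after a filter of 0.5 CPM in 2 libraries. A gene was called at a Benjamini-Hochberg adjusted p of 0.15 or less over all genes tested and a fold over 1.5, and interactions and differences between stages at the adjusted p alone. Stages were compared in a fit of all 24 libraries. The design table, written earlier, named the LPS + IL-4 libraries as the separate table by mistake, and the fit is the one it states. The smallest p of an exact two-sided permutation test at this group size is 0.333, and p-values measure the spread between these libraries. Intervals and floors (3 counts over a group) cover counting error only.

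Libraries of the same replicate number deviated together in naive cells (r = 0.136 to 0.322) and with LPS + IL-4 (0.409 to 0.576), which met the criterion for pairing, but not in all pairs with CD40L + IL-4 (-0.0589 to 0.354) or in control across stages (-0.144 to 0.0834). Neither labels nor methods state a pairing. The fits reported have no block, and the fit with the replicate block is an alternative.

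In simulated counts with 200 genes changed by 1 on the log2 scale, 65% were recovered for naive DKO against control (12301 genes), 66% with CD40L + IL-4 (12505), 84% with LPS + IL-4 (12267) and 70.5% for LPS + IL-4 against naive control (13168). In the same order 26, 20, 17 and 17 unchanged genes were called. The changed genes were drawn at random over all levels, so the recovery of members below 1 CPM is not known from them.

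Members and lists were chosen with earlier results of these data known. Values of each library are given for the 6 called members with the largest change in DKO and the 3 largest in each other mutant per stage, the 4 largest rises and falls between stages in control, Stat2 and the first member of each role group. Other genes were named after their values were seen. A result for 1 gene of the pathway list is not reported here. Alternatives were DESeq2 1.42.0, its size factors in edgeR, voom with quantile normalization (limma 3.58.1), no filter, an adjusted p of 0.05, a mean log2 RPKM above 0, a replicate block and leaving out each library. Ifit, Oas, Mx, Gbp, Irgm and Trim30 genes have close paralogs, and 16 members overlap another gene in the RefSeq table, so shared reads are uncertain.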

Additional observations from a re-analysis of the deposited data

Results flagged for a closer look

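The difference between DKO and control differed between stages, tested as a difference of log2 fold changes over all 24 libraries (edgeR, adjusted p of 0.15 or less). It differed for 20 of the 39 genes between LPS + IL-4 cultures and naive cells, for 16 between LPS + IL-4 and CD40L + IL-4 cultures, and for 7 between CD40L + IL-4 cultures and naive cells, where 29.6%, 28.6% and 16.8% of all genes did, so the last count is near the share of all genes. Naive DKO cells retained part of Spi1, and 6 of the 39 genes had counts near 0 with CD40L + IL-4. Ifi44 changed sign, with a log2 fold change of 2.25 in naive cells and -3.41 with LPS + IL-4, where its level in DKO was near 0. Gbp2 did so between the cultures, at 0.90 with CD40L + IL-4 and -1.54 with LPS + IL-4, while Isg20 was at 1.32 with CD40L + IL-4 and -0.38 with LPS + IL-4, where it was within the fold threshold.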

How the results depend on the processing

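In LPS + IL-4 cultures the numbers of genes called against control in DKO and cKO stayed within 1.5 times of the reported ones under all alternatives, and for SpiB KO under all but leaving out SpiB KO replicate 2. Of the genes named by rule, 388 of the repeated values kept their direction and call, 62 kept their direction and lost the call, and 0 changed direction. DESeq2 called 4 genes for the LPS + IL-4 interaction, 3 higher and 1 lower. With voom the interaction was called for 1 gene with CD40L + IL-4 and 2 with LPS + IL-4. Without a filter the counts were 11 in naive cKO, 8 in naive SpiB KO, 16 for naive DKO against cKO, 10 against SpiB KO, 6, 5 and 7 for the interactions in naive cells, CD40L + IL-4 and LPS + IL-4, and 14 for the DKO effect between CD40L + IL-4 and naive cells. At an adjusted p of 0.05 they were 1 in naive SpiB KO, 7 in naive DKO, 1 (higher) for naive DKO against cKO, 5 in cKO and 3 for DKO against cKO with CD40L + IL-4, 0 for both interactions in culture, and 2 and 9 for the DKO effect of CD40L + IL-4 against naive cells and of LPS + IL-4 against CD40L + IL-4. With a mean log2 RPKM above 0 they were 1 in naive SpiB KO, 4 in cKO with CD40L + IL-4 and 1 for its interaction. With the replicate block they were 4 in naive SpiB KO, 2 for naive DKO against SpiB KO, 3 for the naive interaction, 4 for that with CD40L + IL-4 and 12 (8 higher, 4 lower) for that with LPS + IL-4, and no other count left the 1.5-fold range. The causes were not tested.

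Leaving out single libraries in naive cells gave 1 to 8 genes in cKO, 1 to 10 in SpiB KO, 4 to 26 in DKO, 1 to 7 for DKO against cKO, 0 to 0 against SpiB KO and 0 to 1 for the interaction. With CD40L + IL-4 it gave 4 to 7 in cKO, 0 to 0 in SpiB KO, 11 to 15 in DKO, 1 to 5 against cKO, 8 to 16 against SpiB KO and 0 to 2 for the interaction. With LPS + IL-4 it gave 23 to 25, 13 to 19, 27 to 28, 12 to 17, 17 to 21 and 0 to 4 in the same order. Between stages in control it gave 30 to 34 (CD40L + IL-4 against naive), 27 to 30 (LPS + IL-4 against naive) and 28 to 31 (between cultures). LPS + IL-4 against naive had 14 higher and 13 lower genes without naive control replicate 2. For the DKO effect it gave 3 to 7, 15 to 20 and 9 to 15 in the order CD40L + IL-4 against naive, LPS + IL-4 against naive and between cultures, and the first had 3 higher and 4 lower genes without naive control replicate 2 and 2 and 3 without naive DKO replicate 1. A group left with 1 library was assumed to vary like the others. The 2 libraries per group and totals down to 9598674 counts limit what could be detected for members below 1 CPM.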

Other observations

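On the length-scaled log2 RPKM values, the ranking of the genes in control cells changed with the stage. Samhd1 was the most abundant in naive cells (7.77), followed by Irgm1 (6.19) and Trim30a (6.09), and it was also the most abundant with CD40L + IL-4 (7.01), ahead of Ifi35 (5.23) and Parp9 (4.88). With LPS + IL-4 the order was Isg15 (7.15), Gbp2 (6.97), Oasl1 (6.72) and Samhd1 (6.12). Samhd1 was also a member that was not called in any mutant of that culture.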
